A study of Mus musculus with 28 samples.

Results

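The midbrain of mice 72 h after a subcutaneous injection of tumour cells is described here from 4 two-colour arrays. The mice were male BALB/c animals of 8 weeks. The tumour group was injected with 1000000 cells of CT-26.WT, a colon carcinoma line that grows in BALB/c mice, in 300 µl of PBS, and the PBS group with 300 µl of PBS alone; both groups were killed 72 h later. Every array carried midbrain total RNA of a tumour sample in 1 dye and of a PBS sample in the other. Replicate 3 lies on arrays 445 and 447 and replicate 4 on arrays 456 and 457. The tumour sample was labelled with Cy5 on arrays 445 and 456, and with Cy3 on arrays 457 and 447, so each replicate was hybridised in both dye orientations. These are 4 of the 28 arrays of a series that also covers 18 h and 192 h. The labels call the replicates biological and do not say whether one is 1 animal or a pool. Another 6 arrays of the same hour, numbered 101 to 198 and made with polyA RNA, were left out because the brightness of their spots does not follow their gene annotation: ribosomal protein genes lay at a mean brightness percentile of 44.43 to 56.49 there, against 88.26 to 95.64 on the 4 arrays used.

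A gene was included when it had a value on both arrays of replicate 4 and on at least 1 array of replicate 3. This gave 4880 probes for 4787 named genes, of the 9008 accessions on the arrays; 9 of the probes have no single gene name. Array 445 held a value for 4726 of them and array 447 for 3354, and 154 rest on array 447 alone within replicate 3. The values are log2 ratios of tumour over PBS, so 0 means equal signal, 1 a doubling in the tumour group and a negative value less signal in the tumour group.

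The midbrain holds the dopamine neurons of the substantia nigra and the ventral tegmental area, the serotonin neurons of the dorsal raphe and the periaqueductal grey, and takes part in movement, reward, pain and autonomic control. A growing mass outside the brain can reach these cells through cytokines and glucocorticoids in blood and through sensory nerves, and sickness behaviour is the best known outcome of such signals. Genes often followed in this setting are cytokines and acute phase genes in endothelium and glia, transcription factors induced by neuronal activity or glucocorticoids, and the enzymes of transmitter synthesis. The samples are bulk tissue, in which fewer cells of a type and less RNA per cell cannot be told apart.

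Array 447 stood apart from the other 3. Its Cy3 and Cy5 intensities were unrelated across probes, with a Spearman rho of −0.01328, against 0.8596 to 0.928 on arrays 445, 456 and 457 and 0.7 to 0.9817 on all 13 other total RNA arrays of the series. Its Cy5 channel, which carried the PBS sample, had a rho of 0.09882 with the median Cy5 signal per probe of the other total RNA arrays. The same measure was 0.2844 to 0.7948 for those 13. Its Cy3 channel, with the tumour sample, had a rho of 0.3933, inside the range of 0.2662 to 0.7378 over the 14 total RNA arrays. The share of spots with a signal in both channels was 56.97% on array 447 and 66.56% to 84.06% on the other 3. Array 447 was therefore left out of the values that follow unless it is named. Replicate 3 then has 1 dye orientation, and for each probe the dye effect, the part of the ratio that does not turn with the orientation, was taken from at least 3 of the other total RNA replicates and subtracted.

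**Figure D1:**
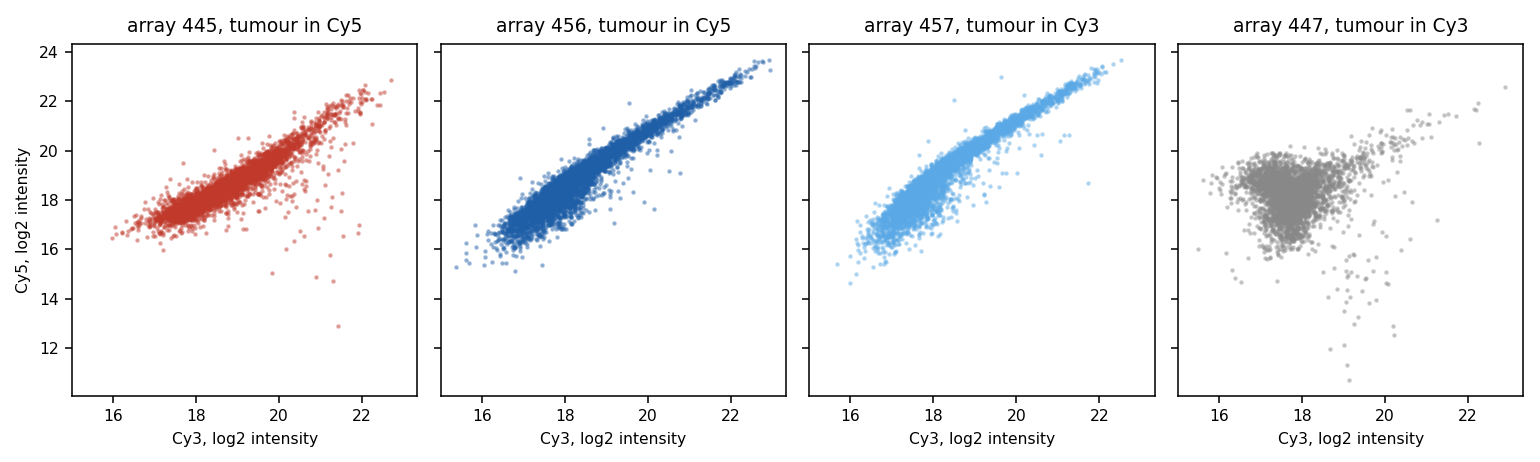
Cy5 against Cy3 intensity (log2, arbitrary scanner units) of the probes described here on each of the 4 arrays. The points lie along a diagonal band on arrays 445, 456 and 457 (rho 0.8596 to 0.928) and form a cloud on array 447 (rho −0.01328); array 445 also shows single points with low Cy5, its tumour channel.

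Markers of the dissected region were checked first. Of 10 markers of midbrain dopamine neurons, 6 are among the named probes and all 6 had values: Th, Ddc, Pitx3, Nr4a2, En1 and Lmx1b. The cerebellar, endothelial and serotonin markers on the arrays, 5 in all (Pcp2, Cbln3, Cdh5, Slco1c1 and Slc6a4), did not meet the condition for inclusion. Nor did Gad1 and Slc32a1 of GABA neurons, Slc1a3 of astrocytes, Aif1 and C1qa of microglia and Cd3e of lymphocytes. A marker left out is thus no sign that its cells were absent. Gad2, of GABA neurons, was included but not tested. Of a longer cerebellar list Calb1, Cbln1 and Pcp4 were tested, with fitted values of 0.20, 0.02 and −0.02. Neurod6, a forebrain marker, was measured, with a fitted value of 0.09 and a 95% interval of −0.24 to 0.42. Lymphocytes were represented by Cd79a, microglia by C1qb, astrocytes by S100b and oligodendrocytes by Mal. Haemoglobin and pituitary hormone genes are not among the named probes, so blood and pituitary tissue in the samples could not be followed by them.

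Of the 4880 probes, 755 were among the dimmest 33.3% and were not tested. With the further need for array 445 and for a dye effect, 3946 probes for 3882 genes were tested by limma's moderated test with the spread pooled over the 7 total RNA replicates of 18, 72 and 192 h. None passed at a Benjamini-Hochberg adjusted p of 0.05 (0% called); the lowest adjusted p was 0.979. An unadjusted p under 0.05 was reached by 151 probes (3.83%), of which 79 (2.00%) were higher in the tumour group and 72 (1.82%) lower. The number depended on replicate 4: without it, when the values rest on array 445 alone and its spread is taken from the other times, 62 probes were called. Without replicate 3 the call count was 0.

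The absence of calls came with an estimate of precision from the pooled spread. The median standard error of a probe was 0.16 and the median 95% interval reached 0.36 to either side. For 2135 probes, 54.1% of those tested, the whole interval lay between −0.5 and 0.5, and for 3747, or 95%, between −1 and 1. The fitted values themselves had a median of 0.0014, and 96.5% lay within 0.5 of 0. For those 2135 probes a difference of 0.5 in either direction lies outside the interval. The interval reached less than 0.5 to either side for 3431 probes, or 86.9%.

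The 2 replicates did not order the genes alike. Across the 3946 probes the Pearson correlation of replicate 3 with replicate 4 was 0.006, a description across probes that share the arrays. Both replicates had 1 sign for 2041 probes, or 51.7%. Replicate 3 spread more widely, with a standard deviation of 0.481 over probes against 0.157 for replicate 4. The 2 arrays of replicate 4 correlated at −0.499 once turned to tumour over PBS, so a ratio on one array tended to be the opposite on its dye swap. Only 571 probes, 14.5%, kept 1 sign on arrays 445, 456 and 457: 295 (7.48%) above 0 and 276 (6.99%) below. Of these, 31 of the higher and 28 of the lower had an unadjusted p under 0.05.

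**Figure D2:**
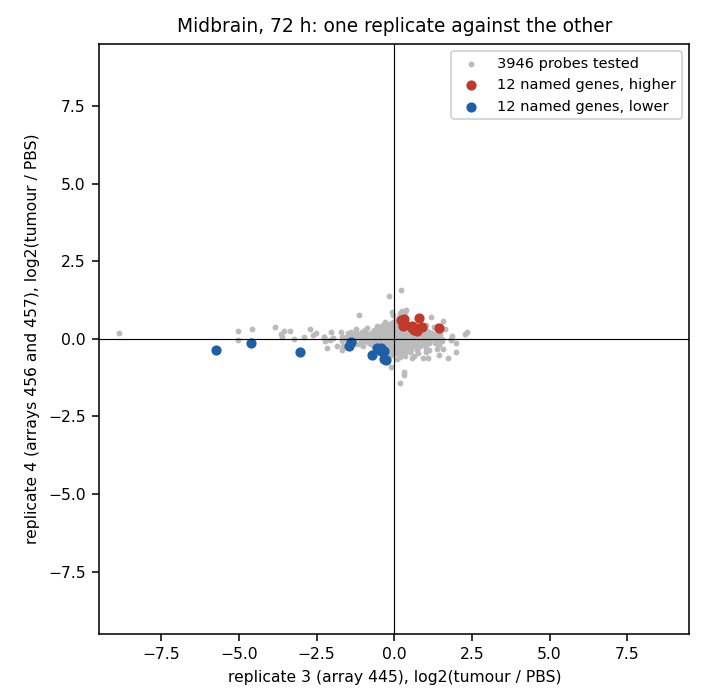
Replicate 3 (x, array 445 with the dye effect subtracted) against replicate 4 (y, mean of arrays 456 and 457), both as log2 tumour over PBS, for 3946 probes; the 12 named genes with the smallest p on each side are coloured. The cloud runs along the x axis (SD 0.481 in x and 0.157 in y) with a correlation of 0.006.

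Large values were found in replicate 3 and not in replicate 4. The fitted value passed 1 in size for 27 probes, 3 above 0 and 24 below. All 27 were beyond 1 in replicate 3 and 0 of them in replicate 4, and 12 had 1 sign in both. The lowest was Zfp687, a zinc finger gene, which read −8.86 on array 445 but 0.22 and 0.14 on arrays 456 and 457. Idh1, the cytosolic isocitrate dehydrogenase, read −5.19 on array 445, against −0.45 and 0.92 on arrays 456 and 457. Plod3, a collagen-modifying enzyme, was 1 of those with a value on array 447, where it read 1.10, against −4.97 on array 445. The largest losses at 72 h are thus values of a single array; these 3 genes, Idh1 apart, were chosen after their values were seen.

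Among the genes that stood above 0 on arrays 445, 456 and 457, the 12 with the smallest p had fitted values from 0.35 to 0.88. None passed the adjusted test (adjusted p = 0.979 for each, limma's moderated test). Abraxas1, a scaffold of the BRCA1-A complex in DNA repair, read 0.29 on array 445 and 0.15 and 0.58 on arrays 456 and 457. Its fitted value was 0.62, with a 95% interval of 0.27 to 0.98. The probe's dye effect was −0.58, and its subtraction brought replicate 3 to 0.88. Slc41a3, a magnesium transporter, read 0.26, 0.11 and 1.24 on arrays 445, 456 and 457, which gave 0.74 (0.28 to 1.20). The 2 arrays of replicate 4 lay far apart for this gene. Wtap, a subunit of the complex that methylates adenosines in mRNA, was steadier, with 0.45, 0.20 and 0.50 and a fitted value of 0.46 (0.13 to 0.79).

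Lta4h, the hydrolase that makes a leukotriene that attracts neutrophils, read 0.23, 0.07 and 0.60 on arrays 445, 456 and 457, with a fitted value of 0.88 (0.31 to 1.46) that rests on a dye effect of −1.20. A second Lta4h probe gave 0.15 (−0.17 to 0.47), and array 447 gave 5.66 for the first and −0.67 for the second. The probes of this gene thus agreed in sign on arrays 445, 456 and 457 and not in size. Mpo, the myeloperoxidase of neutrophil granules, read 0.65 on array 445, 0.29 and 0.28 on arrays 456 and 457 and 0.29 on array 447. It stood above 0 on all 4 arrays, with a fitted value of 0.46 (0.08 to 0.85). Dock2, a Rac activator of leukocytes and microglia, read −0.92, −0.73 and −0.28, and its fitted value was −0.61 (−0.99 to −0.23). Cd79a, a chain of the B cell receptor, read −1.95 on array 445 and −0.48 and 0.04 on arrays 456 and 457. C1qb, a complement gene of microglia, gave 0.01 (−0.33 to 0.36), so neither a gain nor a loss of 0.5 lies in its interval. It is dim, at a brightness percentile of 23.2 among the genes tested.

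Sap30l, a subunit of the Sin3 histone deacetylase complex, read 0.23, 0.55 and 0.67 on arrays 445, 456 and 457. Phf12, another Sin3 partner, read −0.51, −0.11 and −0.48, and −1.30 on array 447. The fitted values were 0.42 for Sap30l and −0.43 for Phf12. These genes were named from opposite sides of 0, so their signs give no direction for the complex. Mllt3, a transcription elongation factor, had 0.11, 0.15 and 1.10 with 1 probe, for a fitted value of 0.46, while its second probe gave 0.08 (−0.37 to 0.54). Ep400, the ATPase of a histone acetyltransferase complex, had −5.90 on array 445, against −0.68 and −0.05 on arrays 456 and 457. Zfp579, a zinc finger gene, had 0.44, 0.77 and 0.07 and a fitted value of 0.50 (0.15 to 0.86), with 1.05 on array 447.

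Zfand5, a zinc finger protein linked to the proteasome, read 0.17, 0.37 and 0.32 on arrays 445, 456 and 457 with 1 probe (fitted value 0.53), but −0.03, −0.46 and −0.17 with the other (fitted value −0.18, −0.48 to 0.12). The probes of Zfand5 disagreed in sign on every array of the 3. Ubxn2b, an adaptor of the ATPase Vcp, had a fitted value of 0.39 (0.07 to 0.71). Snx15, a sorting nexin, was at −0.37 (−0.68 to −0.05) and below 0 on all 4 arrays, with −0.12, −0.29, −0.48 and, on array 447, −0.92. Tspan5, a tetraspanin that steers the protease Adam10, was also below 0 on all 4, with −0.37, −1.07, −0.23 and −0.42 on arrays 445, 456, 457 and 447 and a fitted value of −0.49 (−0.84 to −0.14).

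The other genes below 0 on arrays 445, 456 and 457 included 4 whose size came from array 445. Scn1a, a sodium channel of inhibitory neurons, read −1.66 there and −0.38 and −0.08 on arrays 456 and 457. Mrpl53, of the mitochondrial ribosome, read −4.73 there and −0.22 and −0.04 on the others, and Fgf10, a growth factor, −3.33 against −0.70 and −0.13. Fgf10 was above 0 on array 447, at 0.87. Ostf1 read −1.26 on array 445, −0.01 and −0.22 on arrays 456 and 457 and 0.69 on array 447, for a fitted value of −0.75. Fam183b, Matn1 and Fam98c completed the 12, with fitted values of −0.41, −0.48 and −0.35. On the higher side 2610206C17Rik and Upk3bl completed the list, at 0.48 and 0.35.

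**Figure D3:**
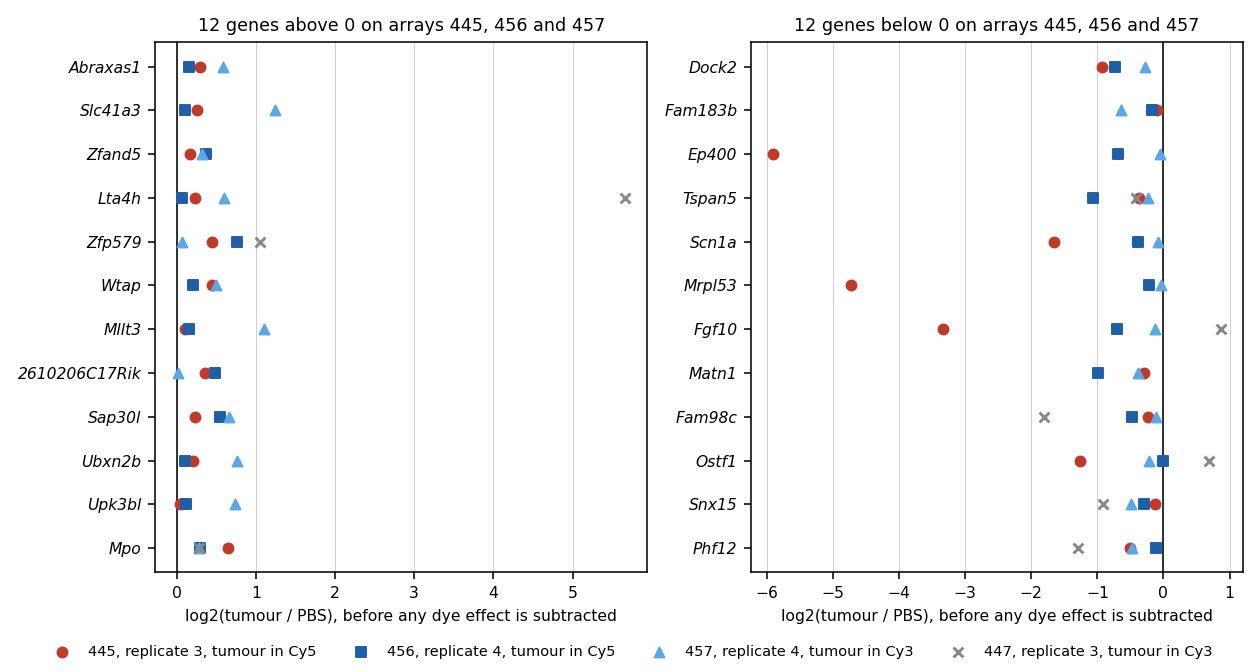
Log2 tumour over PBS on each array, before any dye effect is subtracted, for the 12 genes above 0 (left) and the 12 below 0 (right) on arrays 445, 456 and 457. Ep400, Mrpl53 and Fgf10 lie beyond −3 on array 445 and within 1 of 0 on arrays 456 and 457; crosses mark array 447, which measured 2 of the 12 higher genes outside Mpo and 6 of the lower.

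Lists of genes were then read against all genes tested, of which 1957 of 3882, or 50.4%, were above 0, with a median of 0.0015 over genes. In none of the 36 lists did a gene pass the adjusted test. Of the 53 genes named for these lists, 45 had a value of replicate 4 alone that was opposite in sign to the fitted value (16 genes) or over 1.5 times smaller, so the fitted values of most rest on array 445. The list with the most genes tested was the respiratory chain, whose complexes make mitochondrial ATP. Of its 43 genes, 36 (83.7%) were above 0, with a median of 0.11 and fitted values from −0.25 to 0.34. The median was 0.16 in replicate 3 and 0.05 in replicate 4. In both replicates 28 genes were above 0 and 2 below, where all genes tested gave 1051 above and 964 below of 3882.

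The lean ran through most of the complexes. Complex I, which takes electrons from NADH, had 17 of 19 subunits above 0 (median 0.14). Complex III had 5 of 6 (0.11), complex IV, the cytochrome oxidase, 9 of 10 (0.08) and the ATP synthase 5 of 7 (0.17). Sdhd, the single complex II subunit, was at −0.15. Cox8a, a small subunit of the cytochrome oxidase, read 0.23, 0.30 and 0.26 on arrays 445, 456 and 457, and 1.22 on array 447. It was the single gene of the list with an unadjusted p under 0.05, at 0.34 (0.04 to 0.65). Cox6c, of the same complex, read 0.35, 0.09 and 0.23, for 0.28 (−0.04 to 0.59). Uqcrc1, a core subunit of complex III, was the lowest of the list at −0.25 (−0.64 to 0.15). No interval of the list lay wholly above 0.5, and 28 of the 43 lay wholly between −0.5 and 0.5.

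Genes of the cytosolic ribosome leaned the same way. Of 28 genes, 24 were above 0, with a median of 0.10, 0.15 in replicate 3 and 0.04 in replicate 4. The large subunit had 15 of 16 above 0 and the small subunit 9 of 12; 16 of the 28 were above 0 in both replicates and 0 below in both. Rps20 read 0.38, 0.19 and 0.20 on arrays 445, 456 and 457 and 0.36 on array 447, for the highest fitted value of the list, 0.26 (−0.06 to 0.59). Rpl22 and Rps25 went the other way, at −0.61 and −0.53, on values of −1.02 and −1.08 on array 445. On arrays 456 and 457 both lay within 0.11 of 0. Ribosomal protein genes have many near-identical pseudogenes, and what each probe binds among them is uncertain.

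Dye orientation and brightness moved with both lists. With the tumour sample in Cy5, 36 of 43 respiratory chain genes were above 0 on array 445 and 34 on array 456, with medians of 0.20 and 0.11. With the tumour sample in Cy3 these were 17 of 43 on array 457 and 21 of 41 on array 447, with medians of −0.03 and 0.01. For the ribosome the counts were 25 and 23 of 28 with the tumour sample in Cy5, against 12 and 18 of 28 with it in Cy3. All genes tested had 2059 of 3882 above 0 on array 445, 2093 on array 456 and 1768 on array 457. The mean of arrays 456 and 457, in which a dye effect cancels, was above 0 for 34 of 43 respiratory chain and 21 of 28 ribosome genes. For all genes tested that count was 2060 of 3882. Most of these genes are bright: 33 of the 43 and 24 of the 28 are among the brightest 10% of the genes tested. The other 325 genes of that class had 172 above 0 and a median of 0.01, with 187 above 0 in the mean of arrays 456 and 457. On array 447 all genes tested had 1575 of 2690 above 0 and a median of 0.15, and the other bright genes 199 of 279 and a median of 0.42, so the medians of both lists lay below these there. Under median centring of each array in place of loess the medians were 0.04 and 0.02, and under loess within each print block 0.06 and 0.03. Both medians stayed above 0 in every alternative for which list medians were kept. They were not kept for the authors' deposited ratios. The part of dye, brightness and normalisation in the lean was not tested.

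**Figure D4:**
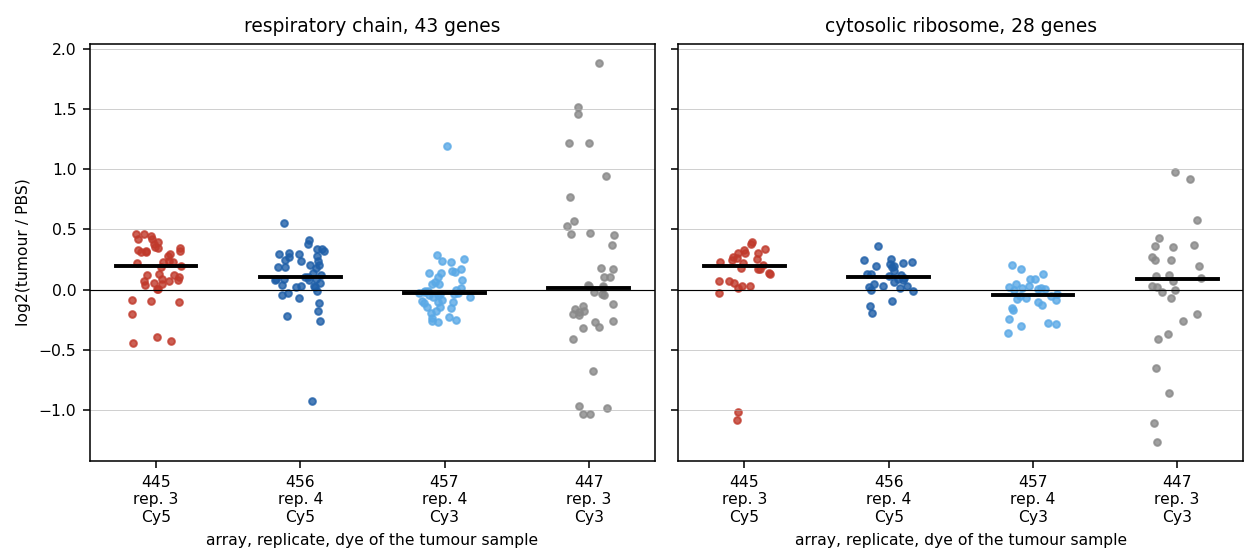
Log2 tumour over PBS of each respiratory chain gene (left) and cytosolic ribosome gene (right) on the 4 arrays, before any dye effect is subtracted, with black lines at the medians. Medians were 0.20 and 0.19 on array 445, 0.11 and 0.11 on array 456, −0.03 and −0.05 on array 457 and 0.01 and 0.09 on array 447.

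The same counts were made at the other times. At 72 h 36 of 43 respiratory chain genes were above 0, against 20 of 43 at 18 h and 11 of 42 in the 192 h samples, and the median of 0.11 compares with −0.02 at 18 h and −0.04 at 192 h. For the ribosome the count was 24 of 28, against 11 of 28 at 18 h and 13 of 28 for the 192 h samples. The medians of the 7 replicates lay apart for the respiratory chain: replicates 3 and 4 of 72 h gave 0.16 and 0.05, those of 18 h −0.02, −0.03 and 0.04 and those of 192 h −0.09 and 0.00. Replicate 4 of 72 h was thus just above replicate 5 of 18 h. Of all genes tested 1957 of 3882 were above 0 at 72 h, against 2191 of 3882 at 18 h and 1890 of 3871 in the 192 h samples. Among the brightest 10%, which hold most genes of both lists, the counts were 221 of 382, against 189 of 382 at 18 h and 126 of 381 at 192 h. No single gene of either list passed the adjusted test of the difference between times.

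Other metabolic lists did not share the lean. Of 15 genes of glycolysis and the TCA cycle, 5 were above 0, with a median of −0.03, and Idh1 was the single gene at an unadjusted p under 0.05. Pdk2, which restrains pyruvate dehydrogenase, was at −0.52 (−1.07 to 0.03), from −0.96 on array 445 and 0.22 and −0.23 on arrays 456 and 457. Lipid synthesis had 4 of 8 above 0. Scd2, a fatty acid desaturase of brain, read 1.85 on array 445, −0.23 and 0.20 on arrays 456 and 457 and 0.94 on array 447. Fasn, the fatty acid synthase, was at −0.34 (−0.67 to −0.01). Among antioxidant genes 9 of 17 were above 0, with Txnrd1 at −0.52 and Txn2 at −0.17.

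**Figure D5:**
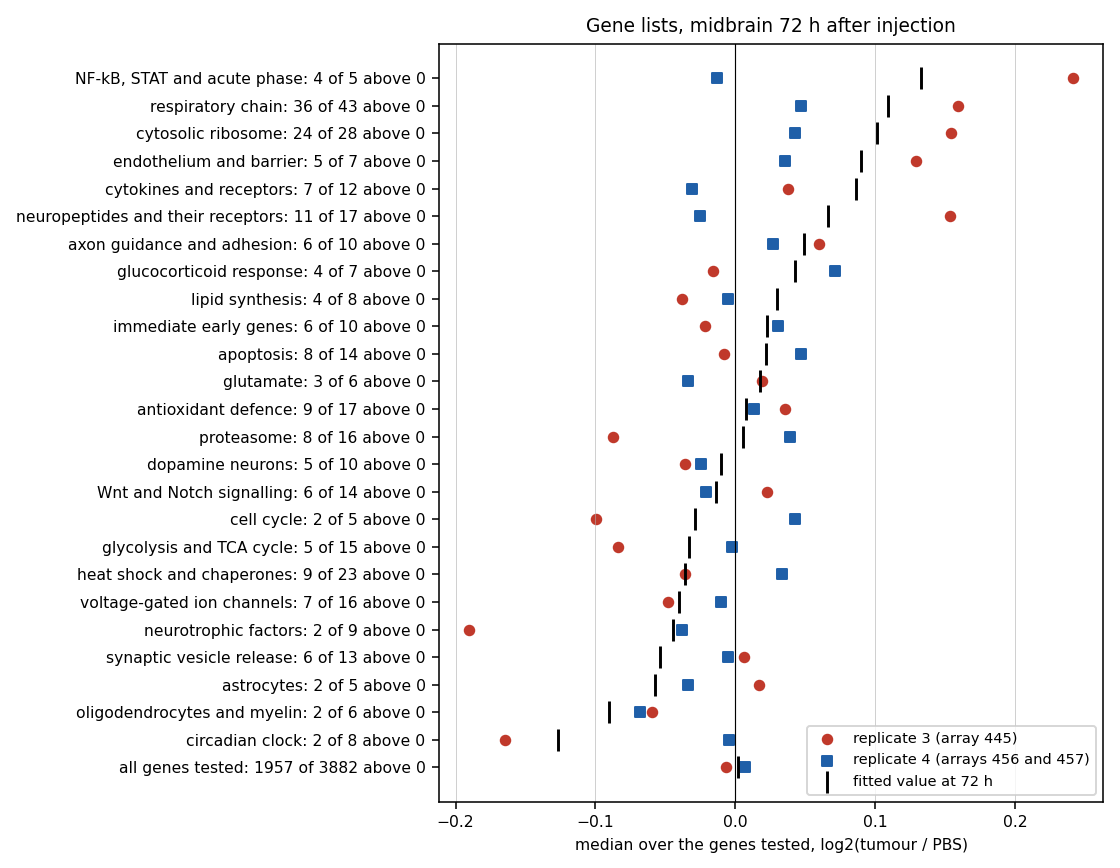
Median log2 tumour over PBS of each list with at least 5 genes tested, for replicate 3 (circles), replicate 4 (squares) and the fit (bars), with the number of genes above 0 beside each name; lists of genes of other tissues are left out. All genes tested stand at 0.0015 with 1957 of 3882 above 0, the respiratory chain at 0.11 and the ribosome at 0.10, and in several lists the replicates lie on opposite sides of 0.

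For the dopamine neurons, 5 of 10 genes were above 0 and the median was −0.01. Th, the rate-limiting enzyme of dopamine synthesis, read −0.04, −0.23 and −0.32 on arrays 445, 456 and 457, and −0.92 on array 447. It was below 0 on all 4 arrays, with a fitted value of −0.22 whose interval reached from −0.58 to 0.15. Ddc, the decarboxylase that follows it, was at −0.16 (−0.62 to 0.30). Among the transcription factors of these neurons, Pitx3 was at 0.28 (0.00 to 0.57) and Nr4a2 at 0.23 (−0.15 to 0.62). Lmx1b was at 0.18 (−0.39 to 0.75) and En1 at −0.48 (−0.96 to 0.00). Arrays 456 and 457 differed in sign for each. They read 0.44 and −0.10 for Pitx3 and −0.65 and 1.27 for Nr4a2. For Lmx1b they read −0.12 and 0.125, and for En1 0.40 and −0.67. Nr4a2 and En1 are dim, at brightness percentiles of 7.8 and 15.2 among the genes tested. With array 447 averaged in, En1 came to 0.02. Drd2, the autoreceptor, was at 0.02 (−0.31 to 0.36).

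Transmission genes were spread about 0. Glutamate genes had 3 of 6 above 0, and Grm8, a presynaptic glutamate receptor, was below 0 on arrays 445, 456 and 457 (−0.41, −0.15 and −0.25), with a fitted value of −0.42 (−0.78 to −0.05). Dlg4, the scaffold of the postsynaptic density, was at 0.24 (−0.21 to 0.70). Of 17 neuropeptide and receptor genes 11 were above 0. Cckbr, a cholecystokinin receptor, was at −0.66 (−1.24 to −0.09), which comes from −1.30 on array 445, since arrays 456 and 457 gave 0.10 and −0.13. Galr1, a galanin receptor, was at 0.24 (−0.07 to 0.56). Synaptic vesicle genes had 6 of 13 above 0, among them Sv2c, a vesicle protein of basal ganglia pathways, at 0.43 (0.01 to 0.85), from 0.81 in replicate 3 and 0.05 in replicate 4, and below 0 Syt11 at −0.31. Ion channels had 7 of 16 above 0, with Kcng4, a modulatory potassium channel subunit, at 0.86 (0.27 to 1.44) and a dye effect of −0.64. Kcng4 read 0.77, 0.69 and −0.08 on arrays 445, 456 and 457. Axon guidance genes had 6 of 10 above 0, led by Epha3, an ephrin receptor, at 0.45 (0.13 to 0.76). Epha3 read 0.45, −0.12 and 1.10 on arrays 445, 456 and 457. Cntn1, an axonal adhesion molecule, was at 0.43 (0.02 to 0.84) on 0.66 on array 445, with 0.10 and 0.01 on arrays 456 and 457 and −0.52 on array 447.

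Glial genes gave no common direction. S100b, an astrocyte calcium-binding protein, read 0.40, 0.13 and 0.21 on arrays 445, 456 and 457 and 0.57 on array 447, above 0 on all 4, with a fitted value of 0.29 (0.01 to 0.57). Ndrg2, also of astrocytes, was at −0.45 (−0.85 to −0.05), from −0.61 on array 445, with 0.00 and −0.26 on arrays 456 and 457 and 0.21 on array 447, and 2 of 5 astrocyte genes were above 0. Myelin genes had 2 of 6 above 0. Mag and Cldn11, both of the myelin sheath, were at −0.34 (−0.73 to 0.06) and −0.29 (−0.65 to 0.06). The 3 microglial genes tested, C1qb, Itgam and P2ry12, were at 0.01, 0.06 and 0.04. Endothelial genes had 5 of 7 above 0, with Eng, a receptor of growing vessels, at −0.59 on a value of −1.12 on array 445.

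Signals from a body with a tumour were sought in the cytokine, acute phase and glucocorticoid lists. Of 12 cytokine and receptor genes 7 were above 0, and the median was 0.09 by the fit, 0.04 in replicate 3 and −0.03 in replicate 4. Il10rb, a subunit of the interleukin 10 receptor, read −0.94 on array 445 and −0.04 and −0.30 on arrays 456 and 457, for −0.63 (−1.20 to −0.06). Ccl4, a chemokine of myeloid cells, was at 0.65 (−0.03 to 1.33) with a dye effect of −0.90. Il1b, a first cytokine of sickness behaviour, was at −0.11 (−0.42 to 0.19), and Cxcl10, an interferon-induced chemokine, at 0.05 (−0.29 to 0.40). For Il1b and Cxcl10 a gain of 0.5 in the measured ratio lies outside the interval. Both are dim, at brightness percentiles of 19.5 and 10.4 among the genes tested. Whether a change in RNA shows in full at such dim spots was not tested. Il6st, the signal chain of the interleukin 6 receptor, was at −0.09 (−0.36 to 0.18). These 3 genes, and Drd2, Itgam, P2ry12, Rps20, Fos and Fosb, were chosen after their values were seen.

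Among acute phase and signalling genes 4 of 5 were above 0, with a median of 0.13 by the fit, 0.24 in replicate 3 and −0.01 in replicate 4. Irak1, a kinase of interleukin 1 signalling, was at 0.43 (−0.06 to 0.92), and Jak2 at −0.24 (−0.68 to 0.19). Lcn2, an acute phase lipocalin made by activated endothelium and astrocytes, read 0.68 on array 445 and 0.06 and 0.02 on arrays 456 and 457. Its fitted value was 0.51 (0.01 to 1.02), and replicate 4 alone gave 0.04. The interferon list kept 3 genes, Irf3, Irf5 and Isg15, with 1 above 0. Of 7 glucocorticoid-induced genes 4 were above 0, and Klf9, a direct receptor target, was at −0.25 (−0.70 to 0.20). Clock genes had 2 of 8 above 0, with Csnk1d at 0.29 and Cry2 at −0.20.

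Genes of neuronal activation were also mixed, with 6 of 10 above 0. Ier5, an immediate early response gene, was the steadiest on arrays 445, 456 and 457, at −0.34, −0.33 and −0.37. It read 0.21 on array 447 and had a fitted value of −0.40 (−0.76 to −0.03). It is dim, at a brightness percentile of 3.3 among the genes tested. Fos read 0.24, 0.04 and 0.41 on arrays 445, 456 and 457, but its interval was wide (0.58, −0.48 to 1.65). Fosb was at 0.41 (−0.16 to 0.97). Btg1, an antiproliferative early gene, had −3.09 on array 445 and −0.12 and 0.37 on arrays 456 and 457. Chaperones had 9 of 23 above 0 and lay between −0.26 and 0.17, with Hsf2 at 0.17 and Calr at −0.13. Proteasome genes had 8 of 16 above 0, with Psmd7 at −0.75 and Psma5 at 0.21, and apoptosis genes 8 of 14, with Pdcd6 at −0.28 and Aifm1 at 0.21. Growth pathways were small lists here: neurotrophic genes had 2 of 9 above 0 (Ntrk2 at −0.19, Ret at −0.18), Wnt and Notch genes 6 of 14 (Apc at 0.34, Ctnnb1 at −0.29) and cell cycle genes 2 of 5 (Mcm7 at 0.14, Rb1 at −0.12).

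Lists of genes known for their use in other tissues were measured in the same way. Olfactory receptors had 5 of 9 above 0 and keratin and sperm protein genes 7 of 12. Olfr65 was at 1.07 (0.16 to 1.98) on values of −0.22, −0.62 and 1.74 on arrays 445, 456 and 457 and a dye effect of −1.80, and Olfr893 at 0.33 (−0.0009 to 0.66). Krtap4-13 and Krtap5-3 were at −0.28 and 0.14.

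Array 447 was also averaged into replicate 3. On the 2719 tested probes with a value there, its ratios had a standard deviation of 0.931, against 0.443 on array 445 and 0.318 and 0.309 on arrays 456 and 457. The correlation of array 447 with its dye swap, array 445, was 0.074, and with arrays 456 and 457 it was 0.024 and 0.13. It put 68 probes beyond 2 in size. The largest was 1810037I17Rik, at 7.31, against 0.63 on array 445 and −0.07 and 0.19 on arrays 456 and 457. Ccr3, a chemokine receptor of eosinophils, read 7.24 on array 447, −0.21 on array 445 and −2.02 and 2.03 on arrays 456 and 457. Nup210, of the nuclear pore, read 6.49, and Gabrg1, a GABA receptor subunit, 6.27, against −1.57 on array 445. Angel2 and Tmem208 followed at 5.99 and 5.69. With array 447 in the fit the number called was again 0, and 285 of 4050 probes had an unadjusted p under 0.05. In replicate 3 with array 447 the median was 0.06 for the respiratory chain and 0.11 for the ribosome, against 0.07 for all genes tested, so the respiratory chain no longer lay above all genes there.

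The difference between 72 h and the mean of 18 h and 192 h was tested for 3931 probes. None passed (0% called), the lowest adjusted p by limma's moderated test was 0.988, and 118 (3.00%) had an unadjusted p under 0.05, 58 of them higher at 72 h and 60 lower. Without replicate 4 of 72 h, 46 probes were called. Slc41a3 had the smallest p: the 72 h replicates gave 0.80 and 0.68, those of 18 h −0.79, −0.40 and −0.29 and those of 192 h 0.22 and −0.59. The difference was 1.08, and Slc41a3 was named here for its small p, so the gap between times follows from that choice. Its 72 h values rest in part on a dye effect of −0.54 and on 1.24 on array 457, against 0.11 on array 456. Dock2 was at −0.72 and −0.51 at 72 h, with a difference of −0.71. For Chrnb1, a subunit of the nicotinic receptor of muscle, the difference was 0.91, and for Tango2 0.89. Chrnb1 read 0.36, −0.0042 and 1.38 on arrays 445, 456 and 457, with a dye effect of −0.83. Tango2 read 0.09, −0.0091 and 1.86 there, with a dye effect of −0.30. Ppp1r2, an inhibitor of protein phosphatase 1, and Gja5, a connexin of arteries, had differences of −0.80 and 0.76. At 72 h they were at −0.16 and −0.13, and at 192 h each had 1 replicate with a value, 1.36 for Ppp1r2 and −1.78 for Gja5.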

How the data were processed

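Spot intensities of both channels, with local background subtracted per the file headers, are those deposited by the authors, with 3 scans for each total RNA array; the software is not named in the labels or headers. The Cy5 to Cy3 ratio of each spot, as log2, was corrected by loess scan by scan (span 0.3, 4 iterations; R 4.3.3, limma 3.58.1). Scans and spots of 1 accession were averaged, signs turned to tumour over PBS by the labelled dyes, and orientations averaged per replicate. The least-squares fit with a mean per time was moderated as in limma and tested on simulated data. The authors' deposited series matrix holds their ratio, a score on a log scale of unstated base, and served as an alternative, as did polyA replicates and other settings. Accessions were named by a reference table (4855), gene number (4057) or the platform's symbol (85); 11 had several. Genes of each list were averaged over probes. Named were, of probes with 1 sign on arrays 445, 456 and 457, the 12 higher and 12 lower of smallest p, up to 2 genes per list of at least 5, the 6 of smallest p between times and the 6 largest on array 447. Members and lists were chosen with earlier results of these data known. Arrays carry no counts; their number limits the precision.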

Additional observations from a re-analysis of the deposited data

Results flagged for a closer look

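Array 447 lay far from the other 3 arrays of 72 h in the correlation of its 2 channels: rho was −0.01328, and its gap to the next array was 0.927 of the range of the 4, above Dixon's 95% limit. The array was set aside for this same property, so this restates that choice and is no separate test. Counted were 85 named genes with at least 3 values at the other times. In 2, both 72 h replicates lay on 1 side of 0 and all values of 18 h and 192 h on the other. They were Cckbr, at −0.66 at 72 h, and Cox6c, at 0.28. Cox6c had no value in replicate 3 of 18 h. Replicates 3 and 4 gave −1.31 and −0.02 for Cckbr, with 0.10 on array 456, and 0.39 and 0.16 for Cox6c. The 85 genes had been named for a small p or a large value on array 447. The same count over all probes tested was not made. The opposite signs were not tested as such, and neither gene passed the test of 72 h against the other times (limma's moderated test).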

How the results depend on the processing

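No probe was called at 72 h or in the difference between times under any alternative that kept both 72 h replicates. Leaving out 1 replicate gave 0 to 62 calls at 72 h and 0 to 46 in the difference, with 38 to 449 and 31 to 409 probes at an unadjusted p under 0.05; the high ends come without replicate 4 of 72 h, when array 445 alone sets the value. At an unadjusted p under 0.05 there were otherwise 285 at 72 h and 178 in the difference with array 447 averaged in, 253 at 72 h when also no dye effect was subtracted, and 49 with the 72 h replicates alone. A block for slide or scan date could not be fitted, since the files give neither.

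Replicate numbers 3 and 4 are shared by the 3 times. The differences between them correlated at −0.022 for 18 h and 72 h, 0.183 for 72 h and 192 h and −0.01 for 18 h and 192 h. Whether samples of the same number are paired is not given by the labels. With a block for the replicate number, over replicates 3 and 4 alone, the difference had 0 calls and 159 probes at an unadjusted p under 0.05, against 106 without the block in the same samples.

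Of 86 named genes 17 changed sign without replicate 3 of 72 h and 0 without replicate 4, when 15 passed the test. A lone replicate is assumed to vary like the other times. Their ranges when 1 replicate is left out were −2.63 to 0.13 for Btg1, −0.64 to 0.0662 for Ctnnb1, −0.11 to 0.59 for Dlg4, −1.28 to 0.10 for Eng, −5.03 to 0.24 for Idh1, −0.0186 to 0.88 for Irak1, −0.57 to 0.0709 for Klf9, −0.67 to 0.0003 for Mag and −0.73 to 0.16 for Pdcd6. They were −0.34 to 0.0303 for Ppp1r2, −0.0151 to 0.44 for Psma5, −1.56 to 0.0512 for Psmd7, −0.26 to 0.0134 for Rb1, −1.23 to 0.014 for Rpl22, −1.05 to 0.00 for Rps25, −0.0169 to 1.84 for Scd2 and −1.08 to 0.0343 for Txnrd1. With array 447 averaged in, with the dye effect subtracted or not, 6 changed sign: Ctnnb1 came to 0.0473, En1 to 0.0157, Gabrg1 to 1.09, Ntrk2 to 0.14, Ppp1r2 to 0.0665 and Rb1 to 0.11. With no dye effect subtracted, Ccr3 came to −0.11 and Tmem208 to −0.49. Median centring gave −0.0175 for Galr1 and 0.0509 for Gja5, no background subtraction 0.0494 for Ntrk2 and 0.0022 for Rb1, and the first scan alone −0.0332 for Psma5. The authors' deposited ratios, of unknown base, gave 0.0939 for Krtap4-13 and 0.105 for Txnrd1, and the fit with polyA replicates gave 0.13 for Gja5 and 0.0289 for Rb1. The cause was not tested in any of these. Of 27 list medians, between 0 and 10 changed sign under an alternative, 10 of them with array 447 averaged in and 10 with the first scan alone. List medians were not kept for the authors' deposited ratios.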
